A study of Mus musculus with 4 samples.

Results

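The S100-fused proteins are a family of large epithelial proteins encoded side by side in the epidermal differentiation complex of mouse chromosome 3. The 7 genes described here, chosen by name in the deposited gene table, were Flg, Flg2, Hrnr, Rptn and Crnn, whose proteins are known from the epidermis and other stratified epithelia, and Tchh and Tchhl1, which are known from the hair follicle. They are 7 of the 56493 genes listed. A count was found for 6 of the 7, and the same 6 were among the 4243 genes that passed the filter on low counts and were tested. The family was picked with the difference between knockout and control in view, so its own values are given as a description.

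RNA came from the separated epidermis of shaved mouse dorsal skin. The 2 cKO libraries are labelled as a knockout of Stim1 and Stim2 in epithelium through a Cre driven by the keratin 14 promoter, which is active in basal keratinocytes and the outer root sheath of the follicle. The 2 control libraries are from Stim1/2fl/fl mice, which carry the floxed alleles of both genes; age is not given in the labels, nor whether each library comes from 1 animal, so p-values measure the spread between these libraries, which may be technical. STIM1 and STIM2 sense calcium in the endoplasmic reticulum and open calcium channels of the plasma membrane when that store empties. Values are raw counts of a 3' RNA-seq kit, with totals from 118858 to 322426 per library, and are also given as edgeR's CPM, which divides each count by the TMM-scaled library size. A count of 0 is compatible with up to 3 counts, worth 9.58 to 33.7 CPM depending on the library (counting error only). Stim1 gave 23 and 6 counts in the cKO libraries, 24 and 62 in the controls, and Stim2 had 0 and 1 against 3 and 18. Stim1 was at 93.0 and 67.4 CPM in cKO against 128 and 198 CPM (log2 fold change -0.98, standard error 0.52, edgeR adjusted p 0.671), so these counts do not by themselves show its loss; which part of the gene the 3' reads cover was not examined. Keratinocyte markers were abundant, with summed levels of 17182 to 28988 CPM for the suprabasal list (8 of 8 genes with a count) and 4927 to 9041 CPM for the basal list (7 of 7), while 3 of 4 endothelial markers were at 0 in every library.

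Each protein of the family begins with a calcium-binding domain like that of the small S100 proteins, followed by a long, repetitive stretch. Profilaggrin, the product of Flg, is stored in keratohyalin granules of the granular layer and is cut into filaggrin units that bundle keratin filaments and are later broken down into amino acids that hold water in the horny layer. Trichohyalin, the product of Tchh, has the corresponding place in the inner root sheath and medulla of the hair follicle, where it is cross-linked to keratins and hardened.

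The genes lay in the order Crnn, Flg2, Flg, Hrnr, Rptn, Tchh, Tchhl1, all on the plus strand, within 327 kb (chr3:93052094-93379287 in the coordinates of the deposited table; the submitters' processing notes name GRCm39). Flg (ENSMUSG00000102439) ran from 93180830 to 93200993, Flg2 (ENSMUSG00000049133) from 93104585 to 93128698, Hrnr (ENSMUSG00000041991) from 93227056 to 93240877 and Rptn (ENSMUSG00000041984) from 93301006 to 93306749. Crnn (ENSMUSG00000078657) ran from 93052094 to 93057126, Tchh (ENSMUSG00000052415) from 93349637 to 93356384 and Tchhl1 (ENSMUSG00000027908) from 93376061 to 93379287. The gene models shared a form in which 1 exon block holds most of the counted length. The last block made up 99.0% of the 20803 counted bases of Flg2, 98.1% of Hrnr, 97.6% of Tchh, 95.1% of Rptn, 89.5% of Tchhl1 and 76.0% of Flg. Crnn differed, with 11.3% in its last block. In a search of mouse reference transcripts no other gene matched any of the 7 at 95% identity over 150 bases, although Flg, Flg2, Hrnr and Tchh matched other places within their own transcripts, with 32, 94, 4 and 2 hits. Exons of Rptn shared 45 bases with the gene model Gm37857 on the same strand (3 counts in all), and exons of Tchh shared 1402 bases with the antisense gene Gm56800 (0 counts); whether counting used strand is not given in the sources used here.

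The start regions of the genes are shown because members with opposite values shared the same letters there. All 7 had a window of 300 bases in RefSeq (250 before to 50 after the annotated start, build GRCm38.p6, plus strand). Windows are printed for the 5 members with the most counts: Flg at chr3:93273296-93273595, Flg2 at chr3:93197023-93197322, Hrnr at chr3:93319499-93319798, Tchh at chr3:93442080-93442379 and Tchhl1 at chr3:93468504-93468803. Capitals mark matches to the AP-1 motif TGANTCA and to the TATA box motif TATAAA on the printed strand.
Flg: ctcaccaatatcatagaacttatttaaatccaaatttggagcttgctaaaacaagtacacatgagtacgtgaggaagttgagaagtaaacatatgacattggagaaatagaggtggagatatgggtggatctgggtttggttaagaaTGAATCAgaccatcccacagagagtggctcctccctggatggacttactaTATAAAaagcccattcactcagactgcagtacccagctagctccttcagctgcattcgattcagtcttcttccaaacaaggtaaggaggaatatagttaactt
Flg2: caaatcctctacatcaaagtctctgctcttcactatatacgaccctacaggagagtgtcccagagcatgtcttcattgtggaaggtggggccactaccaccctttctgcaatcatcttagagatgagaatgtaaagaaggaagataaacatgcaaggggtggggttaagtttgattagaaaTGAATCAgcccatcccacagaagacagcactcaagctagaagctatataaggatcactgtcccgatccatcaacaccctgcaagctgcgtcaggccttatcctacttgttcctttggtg
Hrnr: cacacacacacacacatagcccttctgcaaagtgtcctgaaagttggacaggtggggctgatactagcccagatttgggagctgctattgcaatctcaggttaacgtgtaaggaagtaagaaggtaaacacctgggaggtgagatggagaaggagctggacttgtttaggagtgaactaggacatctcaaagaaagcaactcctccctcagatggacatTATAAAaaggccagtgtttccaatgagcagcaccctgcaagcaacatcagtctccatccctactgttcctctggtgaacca
Tchh: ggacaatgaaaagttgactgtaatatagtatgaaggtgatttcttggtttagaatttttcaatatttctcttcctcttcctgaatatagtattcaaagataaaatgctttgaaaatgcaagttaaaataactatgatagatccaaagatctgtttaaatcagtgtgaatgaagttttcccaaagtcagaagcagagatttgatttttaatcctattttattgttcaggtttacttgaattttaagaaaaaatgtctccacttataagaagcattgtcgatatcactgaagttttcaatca
Tchhl1: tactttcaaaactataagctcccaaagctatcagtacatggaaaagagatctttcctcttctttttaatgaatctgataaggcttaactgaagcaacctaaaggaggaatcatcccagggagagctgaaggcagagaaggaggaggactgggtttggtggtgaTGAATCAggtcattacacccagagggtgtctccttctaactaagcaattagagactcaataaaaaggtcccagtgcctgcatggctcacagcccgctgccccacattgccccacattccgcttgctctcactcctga

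The AP-1 motif TGANTCA, which reads the same on both strands, was found in 5 of the 7 windows and in 7.81% of all 32851 promoter windows. AP-1 is a dimer of Fos and Jun proteins known to act on many genes of late keratinocyte differentiation. The match was TGAATCA in Flg (103 bases before the start), Flg2 (69 bases), Tchhl1 (87 bases) and Crnn (96 bases) and TGATTCA in Rptn (96 bases). Hrnr and Tchh had none. The annotated start of Tchh falls on the letters atg of its printed window, which may therefore hold coding sequence and not a promoter. Matches in the Tchh window, or the lack of them, are thus not read as those of its start region. The TATA box letters TATAAA, searched on both strands, were in 4 of the 7 windows (Flg, Hrnr, Rptn and Crnn) and in 13.6% of all windows. The letters GGAAAA, the core bound by the calcium-regulated factor NFAT, were in 2 of the 7 (Tchh and Tchhl1) and in 23.4% of all windows, searched on both strands. The motif TTGCNNAA, bound by C/EBP factors, was in 3 of 7 (10.8% of all windows) and AACCGGTT, bound by grainyhead-like factors, in 0 of 7 (0.146%). A match is a string of letters and not a bound site, and these windows were not assayed in this series.

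A stretch of 40 bases around the AP-1 match of Flg, chosen after the sequences were seen, was compared without gaps with every window on both strands. The closest windows among the members are shown, with capitals at the bases identical to Flg.
Flg: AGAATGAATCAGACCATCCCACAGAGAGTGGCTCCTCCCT
Hrnr: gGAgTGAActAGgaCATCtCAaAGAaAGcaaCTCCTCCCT
Flg2: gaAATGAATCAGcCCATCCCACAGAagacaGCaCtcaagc
Rptn: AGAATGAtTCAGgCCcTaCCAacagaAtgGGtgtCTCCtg
Tchhl1: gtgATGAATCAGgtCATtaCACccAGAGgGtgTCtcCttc

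Hrnr shared 28 of the 40 bases with Flg, although it lacks the full AP-1 letters, and Flg itself and Hrnr were the only 2 of the 32851 windows that were at least that alike. Flg2 shared 25 bases, which 0.0974% of windows reached, Rptn 24 (0.429%) and Tchhl1 23 (1.33%). Tchh and Crnn shared 20, which 32.7% of windows reached, with the limit on the Tchh window given above. Whether the stretches are related was not tested. The 5 stretches shown lay in front of genes that were higher (Flg, Hrnr, Rptn), overlapping (Flg2) and lower (Tchhl1) in cKO, as described next.

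Among the epidermal members, Flg and Hrnr were higher in both cKO libraries than in both controls, Flg2 was not, Rptn was seen at a few counts and Crnn not at all. Both hair follicle members were lower in both cKO libraries. In the edgeR quasi-likelihood fit across all genes, with Benjamini-Hochberg adjustment, 2 of the 4 tested epidermal members were called higher (Flg and Hrnr) and 0 lower, where 0.660% of all tested genes were called higher. Of the 2 hair follicle members 1 was called lower (Tchhl1), where 0.189% of all tested genes were. Groups that did not overlap, higher in cKO, were seen for 3 of 4 tested epidermal members, against 18.9% of tested genes, and groups that did not overlap, lower in cKO, for 2 of 2 hair follicle members, against 19.6%. Groups that did not overlap in either direction were seen for 5 of the 6 tested members and 38.5% of tested genes. Since the contrast was in view when the family was picked, these counts are not read as support.

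**Figure D1:**
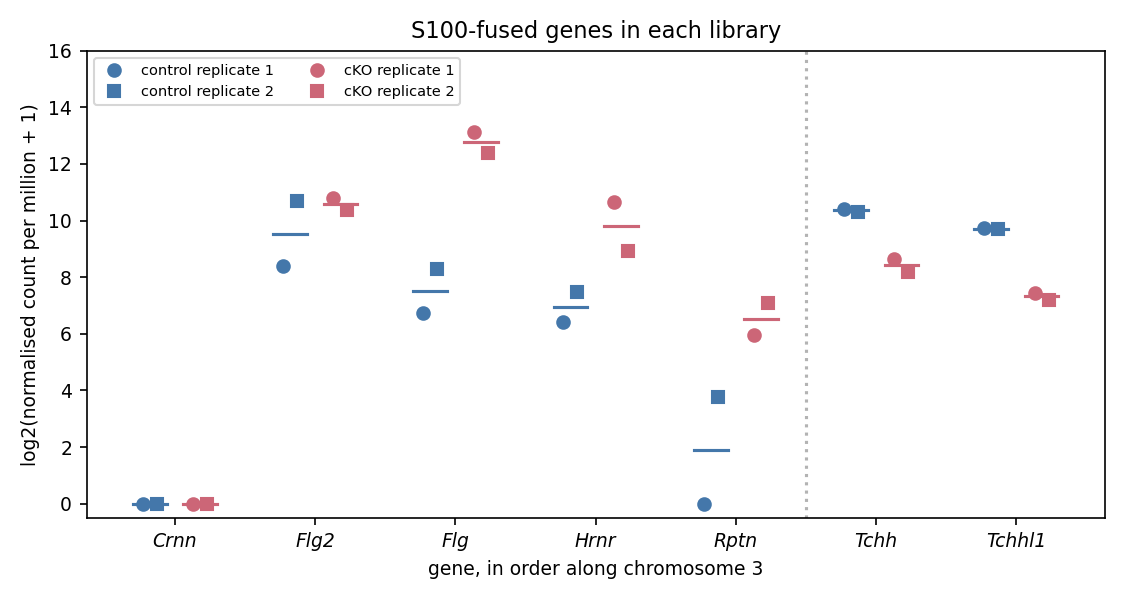
Levels of the 7 genes in each library, as log2 of CPM plus 1, with genes in their order along chromosome 3, circles and squares for replicates 1 and 2, bars at the mean of the 2 values on this log scale and a dotted line between epidermal and hair follicle genes. Flg lies between 107 and 313 CPM in control and at 5383 and 8968 CPM in cKO, while Tchh and Tchhl1 lie lower in cKO and Crnn is at 0 throughout.

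Flg gave 2218 and 479 counts in the cKO libraries, 20 and 98 in the controls, or 8968, 5383, 107 and 313 CPM. Both cKO libraries were far above both controls, and the lower cKO value was 17.2 times the higher control value. The cKO mean was 7176 ± 2535 CPM (SD, n = 2), the control mean 209.8 ± 146 CPM, and the fitted log2 fold change was 5.07 with a standard error of 0.62, a 33.5-fold difference. It was the 17th highest of the 4243 fitted values. Flg took 0.786% of all counts in cKO replicate 1 (95% Wilson interval 0.754% to 0.819%) and 0.403% in cKO replicate 2 (0.369% to 0.441%), against 0.00999% (0.00646% to 0.0154%) and 0.0304% (0.0249% to 0.0370%) in control. The fitted value became 6.08 without control replicate 2, and it was called in 13 of the 13 alternative settings.

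Hrnr encodes hornerin, a filaggrin-like protein of the granular and cornified layers. It gave 403 and 43 counts in the cKO libraries, 16 and 56 in the controls, or 1629.5, 483, 85.4 and 179 CPM. The groups did not overlap, but the cKO libraries themselves differed 3.37-fold. The fitted log2 fold change was 2.99 with a standard error of 0.60. It depended on single libraries: leaving out cKO replicate 1 gave 1.79 and ended the call, while leaving out cKO replicate 2 gave 3.60 and control replicate 2 gave 3.66.

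Flg2 encodes filaggrin-2, which is stored in keratohyalin with profilaggrin and takes part in holding corneocytes together. It gave 441 and 117 counts in the cKO libraries, 63 and 515 in the controls, or 1783, 1315, 336 and 1645 CPM. Only control replicate 1 was low, 4.89-fold under the other control, and control replicate 2 lay between the cKO libraries. The log2 fold change was 0.64 with a standard error of 0.59, an estimate of -0.08 when control replicate 1 was left out and 2.22 when control replicate 2 was; leaving out a cKO library gave 0.35 or 0.85. Flg2 was thus not told apart between the groups, with its control libraries 4.89-fold apart. Its neighbour Flg, 52.1 kb away, had groups that were far apart.

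Rptn encodes repetin, a cornified envelope precursor found sparsely in normal epidermis and in follicles. It gave 15 and 12 counts in the cKO libraries, 0 and 4 in the controls. These few counts were higher in both cKO libraries, and Rptn passed the filter only through them, so a difference in the fit had to follow. Summed over libraries the rate was 8.80 times higher in cKO, with an exact 95% interval of 3.07 to 34.6 that covers counting error only. The fitted log2 fold change of 3.51 (standard error 1.05) was not called, and it became 7.03 without control replicate 2, which held all control counts, and 2.81 without control replicate 1.

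Crnn encodes cornulin, which in mice is best known from the oesophagus and other internal stratified epithelia. It had 0 counts in each of the 4 libraries. At these depths a count of 0 allows a share of up to 0.00106% and 0.00252% of the counts in cKO replicates 1 and 2 and 0.00150% and 0.000930% in control replicates 1 and 2. No fold is given for it.

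Tchh gave 99 and 26 counts in the cKO libraries, 257 and 398 in the controls, or 400.3, 292, 1371 and 1271 CPM. Both cKO values were below both controls, and the replicates of each group lay close together. The cKO mean was 346 ± 76.4 CPM (SD, n = 2), the control mean 1321 ± 71.0 CPM, and the lower control value was 3.18 times the higher cKO value. The fitted log2 fold change was -1.91 with a standard error of 0.43, which was not called, and values without 1 library ran from -2.22 to -1.71. Tchh was called in 5 of the 13 alternative settings.

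Tchhl1 encodes trichohyalin-like 1, a smaller relative of trichohyalin that is known from the follicle. It gave 43 and 13 counts in the cKO libraries, 158 and 258 in the controls, or 174, 146, 843 and 824 CPM. These were the tightest groups of the family, with a cKO mean of 160.0 ± 19.6 CPM (SD, n = 2) and a control mean of 834 ± 13.6 CPM. The lower control value was 4.74 times the higher cKO value. The fitted log2 fold change was -2.36 with a standard error of 0.44, and values without 1 library ran from -2.55 to -2.25. In bulk epidermis, fewer cells of a type and less RNA per cell cannot be told apart.

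The control replicates differed more in the epidermal than in the hair follicle members. Between control replicates 2 and 1 the CPM ratio was 4.89 for Flg2, 2.93 for Flg and 2.09 for Hrnr, against 0.927 for Tchh and 0.977 for Tchhl1. Between cKO replicates 1 and 2 it was 3.37 for Hrnr, 1.67 for Flg and 1.36 for Flg2, against 1.37 for Tchh and 1.19 for Tchhl1, so that Flg2 and Tchh varied alike there. The low values of control replicate 1 were in the epidermal members and not in the follicular ones.

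**Figure D2:**
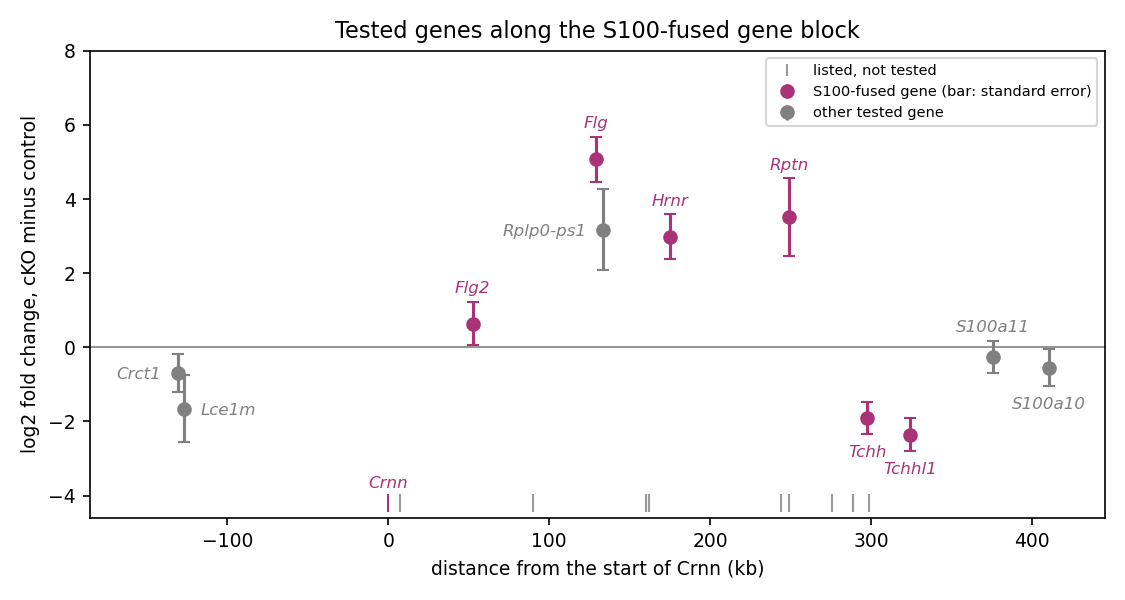
Fitted log2 fold change (cKO minus control, points, with standard errors as bars) of every tested gene in the block and the 2 nearest tested genes on each side, against distance in kb from the start of Crnn, with ticks for listed genes of the block that were not tested. The members run from 0.64 (Flg2) through 5.07 (Flg), 2.99 (Hrnr) and 3.51 (Rptn) to -1.91 (Tchh) and -2.36 (Tchhl1) along the block, and the 4 genes outside it lie between -1.65 and -0.26.

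Along the chromosome the sign changed between Rptn and Tchh, whose genes are 42.9 kb apart. The block held 12 other listed genes, of which 6 had a count and only the pseudogene Rplp0-ps1 had 10 or more. Rplp0-ps1, a copy of a ribosomal protein gene that lies between the 2 exon blocks of Flg on the same strand (93185448 to 93186380), gave 19 and 6 counts in the cKO libraries, 0 and 4 in the controls. Its fitted value of 3.18 (standard error 1.09) was not called. It became 6.68 without control replicate 2, which held all control counts. Rplp0-ps1 passed the count filter only through the cKO libraries, so a higher value had to follow. On the side of Tchhl1 the next tested genes were S100a11 (55 and 21 counts against 58 and 75, log2 fold change -0.26) and S100a10 (43 and 41 against 92 and 127, -0.56), neither called. On the side of Crnn they were Lce1m (253 and 10 counts against 63 and 1053, -1.65) and Crct1 (83 and 19 against 48 and 201, -0.69), neither called.

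Ratios of counts within a library do not depend on how libraries are scaled. The ratio of Flg to Tchh was 22.4 and 18.4 in cKO replicates 1 and 2 and 0.0778 and 0.246 in control replicates 1 and 2. Profilaggrin counts thus outnumbered trichohyalin counts in cKO and were outnumbered by them in control. On the log2 scale, with 0.5 added to each count, the mean was 4.33 in cKO and -2.83 in control, a difference of 7.16 against a spread between replicates of 0.83. No p is given, since this contrast was in view, and with 2 libraries against 2 the smallest exact two-sided permutation p is 0.3333. The difference lay between 6.34 and 7.98 when 1 library was left out.

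Within the epidermal members the ratios set Flg apart from Flg2. The ratio of Flg to Flg2 was 5.03 and 4.09 in cKO and 0.317 and 0.190 in control. For Hrnr to Flg2 it was 0.914 and 0.368 in cKO and 0.254 and 0.109 in control, 4 values that do not overlap between groups but come close. Flg moved further than Hrnr, with a ratio of 5.504 and 11.1 in cKO and 1.25 and 1.75 in control. Lor, the gene of loricrin, the main protein of the cornified envelope, was used as a further reference from the same layer. It gave 1128 and 170 counts in the cKO libraries, 142 and 1400 in the controls. The ratio of Flg2 to Lor was 0.391 and 0.688 in cKO and 0.444 and 0.368 in control, a 1.87-fold range in all, whereas that of Flg to Lor was 1.97 and 2.82 in cKO and 0.141 and 0.0700 in control. The low Flg2 value of control replicate 1 was thus matched by a low Lor value in the same library.

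The 2 hair follicle members kept close to each other. The ratio of Tchh to Tchhl1 was 2.30 and 2.00 in cKO and 1.63 and 1.54 in control, a 1.49-fold range. Among pairs of the 6 tested members, the distance between their log2 CPM profiles over the 4 libraries, each centred on its mean, was smallest for Tchh and Tchhl1, at 0.43, and largest for Flg and Tchhl1, at 7.57. The distance between Flg and Flg2 was 4.18, above that between Flg2 and Tchh at 3.39.

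**Figure D3:**
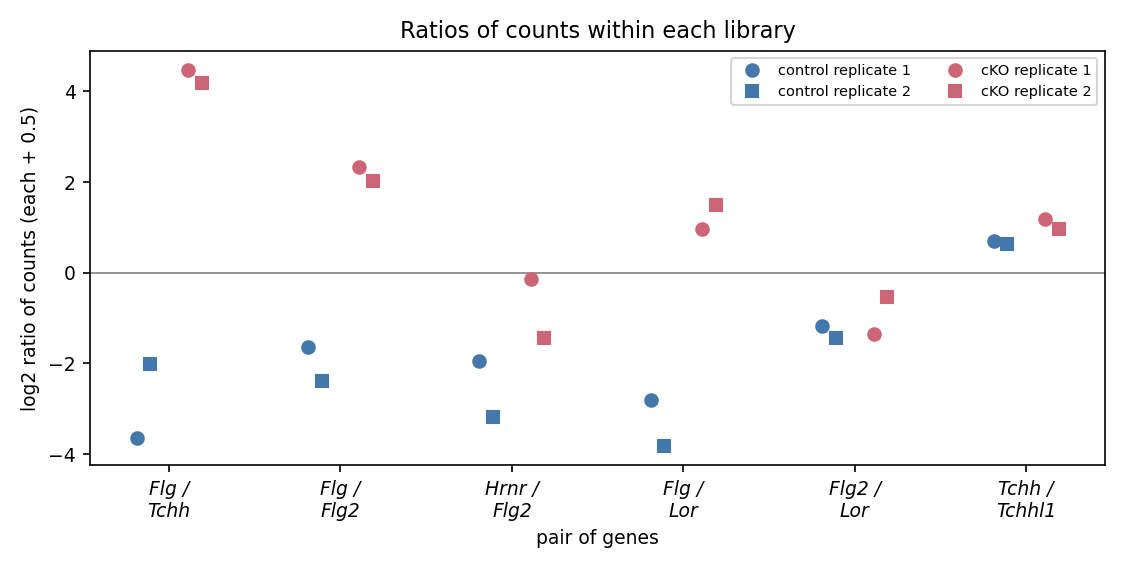
Log2 ratios of counts, each count plus 0.5, for 6 pairs of genes in each library, with circles and squares for replicates 1 and 2 of each group. The cKO and control libraries lie furthest apart for Flg over Tchh, at 4.18 and 4.48 against -3.65 and -2.02, and overlap for Flg2 over Lor.

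As a share of all counts of the family, the epidermal members made up 95.6% and 94.3% in cKO and 19.3% and 50.6% in control. Flg alone was 68.9% and 69.4% of the family in cKO against 3.89% and 7.37% in control, and Tchhl1 was 1.34% and 1.88% against 30.7% and 19.4%. The whole family took 1.14% and 0.581% of the library in cKO and 0.257% and 0.412% in control. Per kb of counted length, the level in control was highest for Tchhl1 (403 ± 6.57 CPM per kb, SD, n = 2) and Tchh (227 ± 12.2), followed by Flg2 (47.6 ± 44.5), Hrnr (11.8 ± 5.91), Flg (11.1 ± 7.74) and Rptn (1.54 ± 2.18). In cKO the order was Flg (381 ± 135), Hrnr (94.4 ± 72.5), Tchhl1 (77.4 ± 9.504), Flg2 (74.5 ± 15.9), Tchh (59.5 ± 13.1) and Rptn (23.6 ± 12.7). Among neighbours in these orders, the values of Hrnr and Flg overlapped in control, and in cKO those of Hrnr and Tchhl1, of Tchhl1 and Flg2 and of Flg2 and Tchh overlapped. The kit reads the 3' end, so that length need not set the count of a gene, and these orders depend on dividing by it.

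The genes whose profile over the 4 libraries was nearest to that of Flg were Krt6b (distance 1.12 on the log2 scale), Klk6 (1.38), Casp14 (1.52), Gsdmc (1.55) and Stfa2 (1.56). Krt6b is a keratin of stressed and wounded epidermis, with 143 and 53 cKO counts against 1 and 2. Klk6 is a kallikrein protease, with 61 and 32 counts against 0 and 0. Nearest to Tchh were Arhgef1 (0.24), Smim7 (0.26), Rab3ip (0.31), Cmtm6 (0.32) and Grn (0.34), of which Smim7 gave 15 and 4 cKO counts against 35 and 60 and Cmtm6 had 9 and 3 against 32 and 57. Tchhl1 was the 14th nearest of 4242. The named neighbours of Flg passed the count filter only through the cKO libraries, so that a difference in the direction of Flg had to follow. Those of Tchh from Arhgef1 to Grn would not have passed on the cKO libraries alone. Distances over 4 libraries mostly follow the difference between groups, and likeness of this kind is a description.

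Among genes that act on profilaggrin only Casp14 was called in the reported edgeR fit. It passed the count filter only through the cKO libraries, so that a difference had to follow. Caspase-14 cuts filaggrin units into small peptides in the cornified layer. Casp14 (chromosome 10, 78547825 to 78554128) gave 48 and 11 counts in the cKO libraries, 0 and 2 in the controls, a summed rate 38.4 times higher with an exact 95% interval of 10.2 to 325 for counting error only. It was called (edgeR, adjusted p 0.0123), and lost its call with limma-voom; its adjusted p ranged from 1.39e-07 (edgeR without cKO replicate 2) to 0.348 (limma-voom) over the alternatives. Its fitted value of 5.19 became 7.84 when control replicate 2 was left out, and Casp14 was not tested without cKO replicate 1. Of the 17 genes listed for processing and breakdown 9 were tested, 1 was called higher and 0 lower, and the median log2 fold change was 0.97 against 0.01 over all tested genes. That median rested on single libraries, being 0.01 without cKO replicate 1, 0.23 without control replicate 1 and 2.00 without control replicate 2. Asprv1, the protease SASPase that cuts the linkers of profilaggrin, gave 646 and 108 counts in the cKO libraries, 30 and 253 in the controls (log2 fold change 1.97, standard error 0.64, not called). It too depended on single libraries, at 3.60 without control replicate 2 and 1.25 without control replicate 1 or 1.26 without cKO replicate 1. Without a count filter Asprv1 was called (1.91, edgeR adjusted p 0.0131). Blmh, bleomycin hydrolase, which completes the breakdown to amino acids, had 551 and 303 counts against 171 and 459 (1.24, standard error 0.45, not called). Padi1 and Padi3, the peptidylarginine deiminases that modify filaggrin and trichohyalin, had 0 counts in every library.

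**Figure D4:**
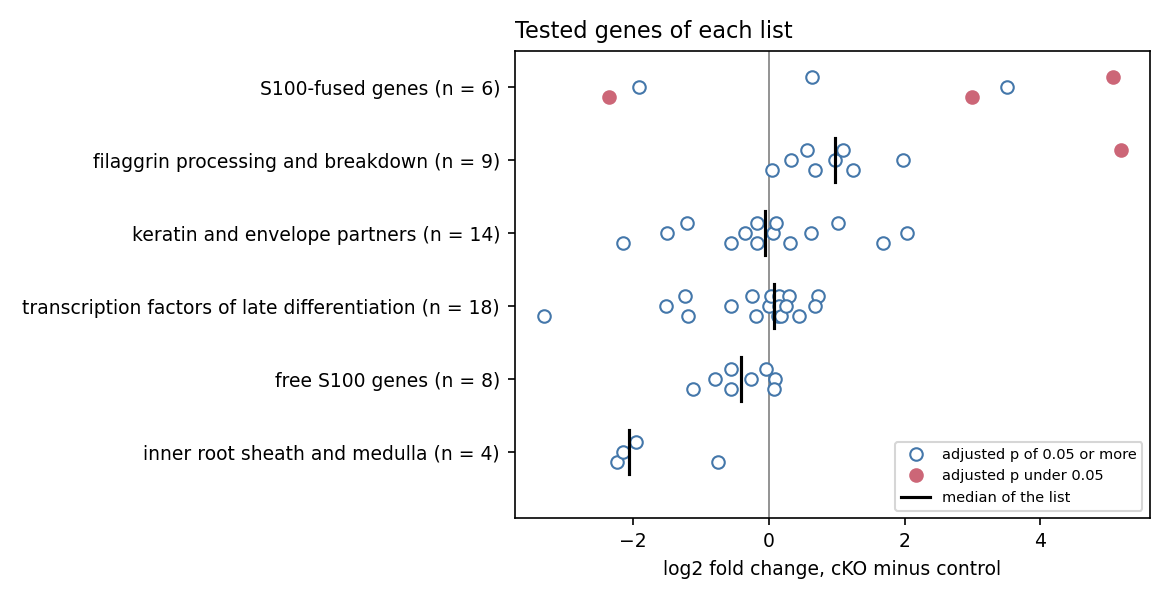
Fitted log2 fold change (cKO minus control) of each tested gene in the S100-fused family and 5 related lists, with filled points for genes at an adjusted p under 0.05 and a black line at each list's median (none for the family, which was chosen). The family spans -2.36 to 5.07, and of the 53 entries in the other lists 1, Casp14, is filled.

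Structural partners of the family in the granular layer showed no common direction. Of 17 listed genes for keratins, envelope proteins and desmosomes, 14 were tested and 0 were called in edgeR, with 7 above 0 and a median of -0.06, which ran from -0.60 to 0.38 when 1 library was left out. Cnfn, cornifelin of the envelope, gave 50 and 18 cKO counts against 2 and 25 (2.03, standard error 0.66), and Krt1, a keratin of the suprabasal layers, had 82 and 13 against 13 and 26 (1.69, standard error 0.52). Cnfn became 4.17 without control replicate 2, and it was 1.34 without control replicate 1. On its control libraries alone Cnfn would not have passed the count filter, so its higher value owes to the filter in part. Krt1 became 2.11 and was called without cKO replicate 2, and it was 0.88 without cKO replicate 1. Tgm3, a transglutaminase that cross-links trichohyalin and envelope proteins, had 12 and 0 counts against 23 and 50 (-2.15, standard error 0.76), and became -7.82 and called without cKO replicate 1, which leaves a cKO library at 0 counts, and -1.53 without cKO replicate 2.

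Of the genes listed beside trichohyalin none was called in the edgeR fit and few could be tested, and the keratins that define the inner root sheath were nearly absent from all libraries. Krt25, Krt26, Krt27, Krt28, Krt71, Krt72, Krt73 and Krt74 together gave 5 and 6 counts in the cKO libraries, 13 and 11 in the controls, with at most 7 counts for any of them in 1 library, so Tchh and Tchhl1 were detected in libraries with few counts of these partners. Of the 18 genes in the list 4 were tested and 0 were called. All 4 had lower values in both cKO libraries, as 19.6% of all tested genes did, with a median of -2.06, which became -1.33 without cKO replicate 2, -1.59 without control replicate 2, -0.98 without a count filter and -0.94 with a filter on mean CPM. Tgm3, among these 4, would not have passed the count filter on its cKO libraries alone, so its lower value owes to the filter in part. Prr9, a proline-rich gene of the differentiation complex known from the follicle, gave 56 and 58 counts in the cKO libraries, 417 and 565 in the controls (-2.24, standard error 0.53). It was not called in the edgeR fit reported here, but was in DESeq2, in limma-voom and in edgeR under 3 other settings (library totals and both filter alternatives), and its edgeR value became -3.14 without cKO replicate 2 and was called, and -1.67 without cKO replicate 1. Krt75, a keratin of the companion layer, had 42 and 18 counts against 81 and 312 (-1.96, standard error 0.50), was called with library totals, without a count filter and without control replicate 1 (-2.43), and was -1.21 without control replicate 2.

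Markers of some other cells also differed between the groups in which Tchh and Tchhl1 were lower. Of 12 skeletal muscle markers 7 were tested. All 7 were lower in both cKO libraries (19.6% of all tested genes were) and 4 were called lower (0.189% of all). All 7 passed the count filter only through the controls, so lower values had to follow and these counts are not read as support. Summed levels of the 12 were 44.5 and 135 CPM in cKO against 1510.1 and 1060.2 CPM in control, and Myh4 and Pvalb were at 0 in cKO. Of 12 listed hair shaft genes 3 were tested and 0 called, with summed levels of 182 and 269.7 CPM against 326 and 479 CPM, and Krt31, Krt33a, Krt33b, Krt35 and Krt81 were at 0 in every library. The 9 markers of the outer root sheath and bulge summed to 2503 and 3113 CPM in cKO against 3703 and 4832 CPM in control, but their genes went different ways. Most of the sum was Krt17, at 1314 and 1652 CPM against 3314 and 4436 CPM (log2 fold change -1.39, not called). Krt79 was at 902 and 1056 CPM in cKO against 272 and 255 CPM (1.89, not called), Postn was called higher (2.61), and the median of these 3 tested genes was 1.89. Dermal fibroblast markers overlapped, at 52.6 and 775 CPM against 272 and 150.1 CPM. So did the marker sums of Langerhans cells (1444 and 3608 CPM against 4029 and 2315 CPM), melanocytes and sebocytes. T cell markers summed to 239 and 180 CPM in cKO against 331 and 246 CPM in control. No gene of these lists was called. The part of the marker differences in the values of Tchh and Tchhl1 was not tested. Beside the higher values of Flg and Hrnr, the suprabasal marker sum overlapped between the groups, at 28988 and 24039 CPM in cKO against 17182 and 26039 CPM in control. The basal marker sum did not overlap, at 9041 and 6249 CPM in cKO against 6041 and 4927 CPM in control. Of its 7 genes 1 was higher in both cKO libraries (Krt14) and 1 lower (Krt15), against 18.9% and 19.6% of tested genes. Krt5, Itga6, Itgb4, Col17a1 and Trp63 overlapped between the groups, so the sum does not stand for basal markers as a class. Within that list Krt14, the basal keratin whose promoter drives the Cre, was at 4355 and 3001 CPM against 928 and 865 CPM (log2 fold change 2.04, edgeR adjusted p 0.0507), while Krt15 was at 841 and 1551 CPM against 2855 and 2098 CPM (-1.06, not called). Their part in the values of Flg and Hrnr was not tested.

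The free S100 genes, which carry the same domain without the long repeats, were not called. Of 17 listed genes 8 were tested in edgeR, 0 were called, 2 were above 0, and the median was -0.41, or -0.07 without control replicate 1 and -0.13 without cKO replicate 1. S100a1, S100a4 and S100a13, those with the largest differences, had log2 fold changes of -1.12, -0.79 and -0.56. The value of S100a1 was -0.47 without cKO replicate 1 and -1.89 without cKO replicate 2, and that of S100a4 was -0.45 without cKO replicate 1. The list of 24 transcription factors of late differentiation had 18 tested genes, 0 called and a median of 0.08, which ran from -0.38 to 0.19 when 1 library was left out. Satb1, a chromatin organiser that acts on the epidermal differentiation complex, was the largest, with 3 and 1 cKO counts against 27 and 33 (-3.32, standard error 0.77). Satb1 passed the count filter only through the controls, so that a lower value had to follow. It was called only with library totals, without a count filter or without cKO replicate 2, among the planned kinds of setting. Junb and Fos, partners in AP-1, were at -1.24 (8 and 2 counts against 14 and 20) and -1.51 (1 and 6 against 23 and 11), not called and for Fos with overlapping groups. Junb too passed the count filter only through the controls. Single libraries set the value of Fos, which was -0.20 without cKO replicate 1, -0.25 without control replicate 1 and -4.07 without cKO replicate 2. At an unadjusted p under 0.05 edgeR had 179 higher and 177 lower genes in the whole table.

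**Figure D5:**
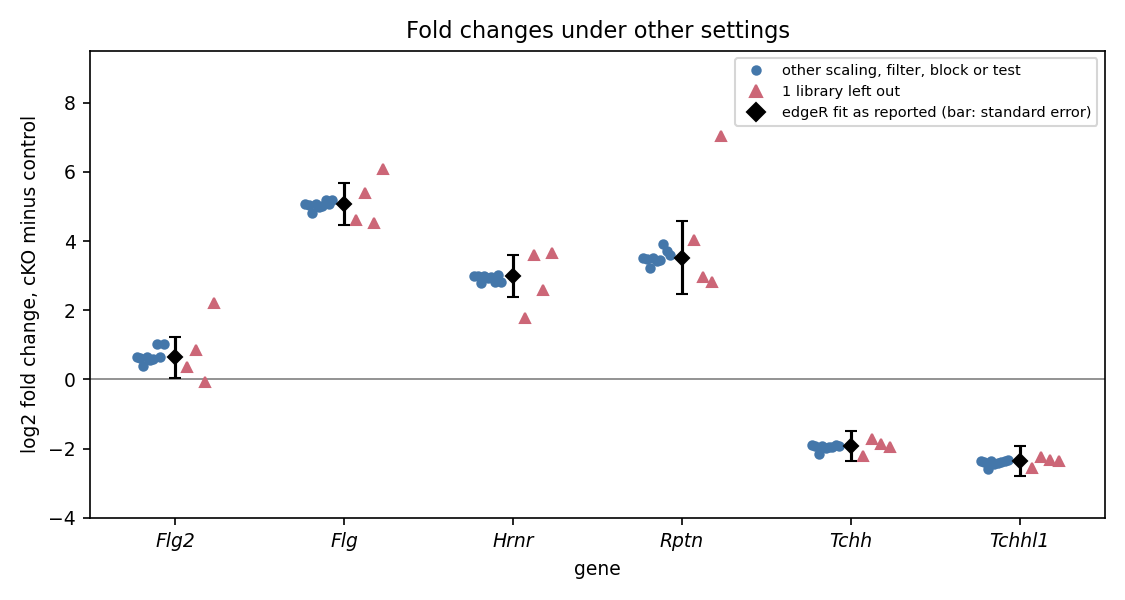
Log2 fold change (cKO minus control) of the 6 tested members in the reported edgeR fit (diamonds, bars for standard errors), under 9 other scalings, filters, a replicate block or other tests (blue points) and with each library left out (triangles). Flg stays between 4.52 and 6.08, Tchhl1 between -2.60 and -2.25, and Flg2 runs from -0.08 to 2.22.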

How the data were processed

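Total RNA of separated dorsal epidermis was sequenced with a 3' kit (QIAseq UPX) converted for MGI sequencing, per the labels' protocols. The authors deposited 1 table of raw counts per gene for 4 libraries. The submitters' processing notes name Trim Galore 0.6.7, Trimmomatic 0.39, cutadapt 3.7, STAR 2.7.10a, featureCounts 2.0.1 and GRCm39. How molecular identifiers, strand and reads with several alignments were handled is not given in the sources used here; reads within the repeats of Flg, Flg2, Hrnr and Tchh could be affected by the last.

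Groups follow the sample titles (2 cKO, 2 control). Counts were fitted in edgeR 4.0.16 (R 4.3.3) after filterByExpr (minimum count 10, total 15), with TMM scaling, glmQLFit and glmQLFTest, genotype as the only term, and Benjamini-Hochberg adjustment over 4243 genes at 0.05. Standard errors are the absolute log2 fold change over the square root of F. On simulated data (4243 genes, 200 of them given a log2 change of 4) 98% to 99% were recovered and at most 7.48% of calls were false. That change was larger in size than the fitted value of every tested member except Flg, and recovery of smaller changes was not examined. Exact binomial and Wilson intervals and limits from 3 counts cover counting error only. Profile distances used log2 CPM with a prior count of 2. Transcripts of GENCODE M21 were searched with blastn 2.17.0, and promoter windows are RefSeq's on GRCm38.p6, whose coordinates were not combined with those of the table. Alternatives were other scalings, filters, DESeq2 1.42.0, limma-voom (limma 3.58.1), a replicate block and each library left out.

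The members and lists were chosen with earlier results of these data known. All 7 members are named, and in each list the called genes and the 3 tested genes furthest from 0 in log2 fold change whose average reached 10 CPM, and the 5 genes nearest in profile to Flg and to Tchh. Lor, Rplp0-ps1 and genes of the marker lists were named in addition to this rule or after their values were seen.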

Additional observations from a re-analysis of the deposited data

How the results depend on the processing

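Over all genes, 28 were higher and 8 lower. The counts of higher and lower genes were 49 and 26 with no filter on counts, 40 and 15 for genes averaging 10 CPM or more, 26 and 15 with library totals only and 12 and 3 with limma-voom. With the replicate number as a block they were 16 and 1. The groups share only numbers (2 pairs), and deviations of same-numbered libraries had a correlation across genes of -0.20; a block with crossed numbers, chosen after seeing the data, gave 90 and 57. With 1 library left out the higher genes ranged from 34 to 59 (48 without cKO replicate 1, 59 without cKO replicate 2, 44 without control replicate 2) and the lower from 8 to 34 (34 without cKO replicate 1, 27 without cKO replicate 2, 20 without control replicate 1). Library totals moved the median log2 fold change of all tested genes to -0.24; Tchh was then at -2.15 and called. The block ended the calls of Hrnr, Tchhl1 and Casp14 (adjusted p 0.0522), and it did not end that of Flg. Among the alternatives for the members, Flg2 alone changed sign. Lor, an added gene, was at -0.50 without cKO replicate 1 and -0.46 without control replicate 1, against 0.31, and at 2.12 without control replicate 2. The Flg to Tchh difference moved by less than its spread under other pseudocounts. With each library left out it ran from 6.34 to 7.98. With 2 libraries per group such a move cannot exceed this spread, so that comparison decides nothing. The depth of cKO replicate 2 limits single counts most.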

Other observations

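Involucrin, another cornified envelope precursor of the same complex, had lower values in both cKO libraries, without passing the test. Ivl gave 152 and 47 counts in the cKO libraries, 257 and 397 in the controls (log2 fold change -1.20, standard error 0.42, edgeR adjusted p 0.359). Its groups did not overlap, and 19.6% of all tested genes were lower in cKO in this way. Its control counts lay within 1 count of those of Tchh in each library. Dsg1a, a desmosomal cadherin of the upper layers, had 257 and 81 counts against 430 and 1020 (-1.51, edgeR adjusted p 0.184). Both genes were singled out after their values were seen.

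The profile of Flg2 over the 4 libraries, examined after its values were seen, was nearest to those of Jmjd6 (distance 0.14), Nup62 (0.20), Lce1b (0.23), Dsc1 (0.25) and Wasl (0.31). Lce1b, a late cornified envelope gene, gave 197 and 45 counts in the cKO libraries, 22 and 192 in the controls, with control replicate 1 low as for Flg2. Dsc1, a desmosomal cadherin of the granular layer, had 28 and 6 counts against 3 and 31. Outside the family, the promoter windows most like the Flg stretch of 40 bases were those of Krt77 and Tfeb, with 27 identical bases each.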
